A study of Mus musculus with 18 samples.

Results

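Hepatocellular carcinomas of antibiotic-treated mice were set against normal mouse liver. The comparison used the arrays whose titles name either group, 6 of the 18 arrays of a study on liver cancer, the intestinal microbiota and the lipopolysaccharide receptor gene Tlr4. All 6 came from male wild-type C3H/HeOuJ mice. The 3 antibiotic tumours (28, 29 and 30, after their titles) were dissected from lesions of mice aged 54 weeks, which had received the carcinogen DEN (diethylnitrosamine, 100 mg/kg) at week 12 and 6 injections of the liver toxin CCl4 (carbon tetrachloride, 0.5 ml/kg) between weeks 13 and 23. From week 10 to week 54 their drinking water held ampicillin, neomycin and metronidazole at 1 g/l each and vancomycin at 500 mg/l. The 3 normal livers (1, 2 and 3) came from untreated mice aged 15 weeks. The other arrays were 7 tumours of C3H/HeOuJ mice given DEN and CCl4 without antibiotics (WT tumours) and 5 such tumours of C3H/HeJ mice, which carry the mutant allele Tlr4P712H.

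Tumour, carcinogen, toxin, age and antibiotics all differ between the groups compared, so their effects cannot be told apart here. No source used here says which samples came from separate animals, and the p-values therefore measure the spread between these samples. In bulk tissue, fewer cells of a type and less RNA per cell also cannot be told apart.

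Hepatocellular carcinoma is a cancer of hepatocytes, and mouse tumours of this kind often switch on genes of the fetal liver while they keep many products of the adult hepatocyte. Adult hepatocytes divide their work along the lobule, with periportal cells making urea and pericentral cells carrying out detoxification and bile acid synthesis. The pulsatile growth hormone of male mice keeps a set of male-biased genes high and a set of female-biased genes low. Bacterial lipopolysaccharide from the gut reaches the liver through the portal vein and is sensed by TLR4 with the help of CD14 and the lipopolysaccharide-binding protein.

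Values are the deposited log2 GCRMA signals of Affymetrix arrays, tested for 9053 genes with limma, in which all 18 arrays shared 1 estimate of the spread. A gene counted as measured when its probe set lay above log2 4 on at least 3 arrays. A gene not measured is described by its probe set of highest mean, and its other probe sets may differ on single arrays. For a named gene with every sample of a group below log2 4, the difference is given as a bound or left out. The median SD within a group was 0.15 log2 units in normal liver and 0.31 in the antibiotic tumours. The arrays also differed technically in step with the groups. The signal of 3′ probe sets over 5′ probe sets of Gapdh was 1.52 ± 0.13 (SD, n = 3) log2 units in normal liver and 0.40 ± 0.13 (SD, n = 3) in the tumours, and that of beta-actin 3.90 ± 0.31 and 2.03 ± 0.17. The groups did not overlap in either (exact two-sided permutation test, p = 0.10, the smallest that 3 against 3 arrays allow). The spiked control transcript dap was bright on the normal arrays only, at 10.30 ± 0.18 against 1.90 ± 0.06 for the antibiotic arrays. The part of these technical differences in the results was not tested.

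Antibiotic tumour 30 differed from tumours 28 and 29 at many genes. It held the lowest or the highest value of all 18 arrays at 1896 genes, against 463 for tumour 28 and 1146 for tumour 29, although WT tumours 17 (1811) and 19 (1757) and normal liver 1 (1758) came near that count. In 8073 genes tumours 28 and 29 lay within 1 log2 unit of each other. Among these, tumour 30 was at least 2 log2 units below the mean of tumours 28 and 29 at 114 genes and at least 2 above that mean at 91.

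In all, 1360 genes (15.0% of those tested) passed an adjusted p of 0.05, of which 734 (8.11%) rose and 626 (6.91%) fell in the antibiotic tumours. The rises were larger than the falls. At least 2-fold changes, with genes below log2 4 set to log2 4, numbered 392 rises and 214 falls, and at least 8-fold changes 77 rises and 6 falls. The median rise was 1.18 log2 units and the median fall -0.86. Of the risen genes, 132 lay below log2 4 in every normal liver, and of the fallen genes 39 lay below it in every antibiotic tumour. The groups did not overlap at 3832 genes (42.3%), 1796 (19.8%) with all tumours above and 2036 (22.5%) with all tumours below. The median difference over all 9053 genes was -0.00.

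**Figure D1:**
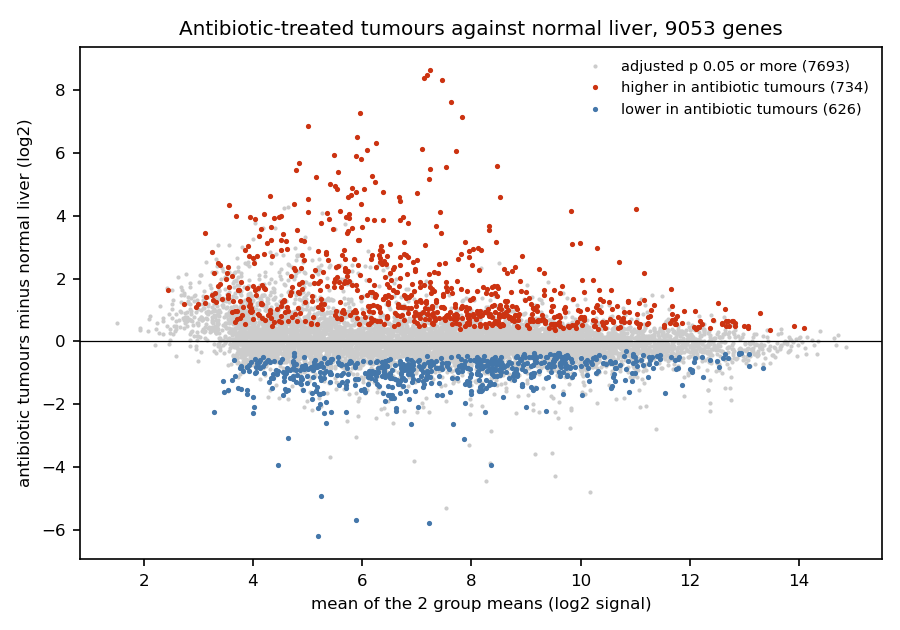
Difference between antibiotic tumours and normal liver (log2, vertical axis) against the mean of both group means (log2 signal, horizontal axis) for 9053 genes, 1 point a gene, with the 734 risen genes in red, the 626 fallen genes in blue and the others in grey. Signals below log2 4 are plotted as deposited, so the farthest points, such as Bex1 above and Obp2a below, include a group below that level.

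How many genes passed depended on which arrays set the spread. With only the 6 arrays of these groups in the fit, 1031 genes passed (11.4%), 458 higher (5.06%) and 573 lower (6.33%), and 708 of them were among the 1360. Leaving out tumour 30 gave 1248 genes (13.8%), 662 higher (7.31%) and 586 lower (6.47%). Both steps together gave 1778 genes (19.6%), 806 higher (8.90%) and 972 lower (10.7%). Leaving out any normal liver or tumour 29 gave 604 (without normal liver 1), 668 (without normal liver 2), 718 (without normal liver 3) and 644 (without tumour 29). For 96 called genes, most of them chosen by the naming rule, the call was followed gene by gene through the alternative fits. Further list members named below without a p-value were not followed in this way. Of the 96, 46 lost their call when 1 array was left out. These are pointed out below with their largest adjusted p. With only the 6 arrays fitted, 35 of the 96 calls ended: Afp, Ahsg, Akr1c18, Alas2, Bicc1, Cdkn1a, Cyp2u1, Ddit4, Dusp6, Golm1, H2-Ab1, H2-Eb1, Hao1, Hbegf, Higd1a, Icam1, Igfbp3, Kdm5b, Mcl1, Nfe2l2, Nfkbie, Pdgfa, Pfkm, Pgap2, S100a4, Srebf2, Steap4, Sult1a1, Tm7sf2, Tnfaip3, Ugt2b5, Vim, Vnn1, Washc4 and Zfp36. Another choice of probe sets (their mean, or none that may share sequence) ended 8: H2-Ab1, Higd1a, Ndrg1, Ppara, Shmt2, Srebf2, Stmn1 and Washc4.

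The 8 largest rises came from genes that lay near or below log2 4 in most normal livers. Scd2, a fatty acid desaturase of fetal and tumour tissue, measured 3.33, 3.14 and 3.42 in normal livers 1 to 3 and 12.13, 11.45 and 11.24 in tumours 28 to 30. The rise was at least 195-fold (adjusted p = 2.69e-08 by limma). Other Scd2 probe sets differed by 3.48 and 0.52. Spink1, a secreted trypsin inhibitor, measured 3.21, 2.99 and 2.67 against 10.62, 10.84 and 12.47. It was at least 159-fold higher (adjusted p = 0.000134), and even the lowest tumour lay above the highest normal liver by over 7 log2 units in both genes. Bex1 measured 3.15, 3.12 and 2.56 in normal liver against 12.29, 9.25 and 13.14 (adjusted p = 0.000361, a rise of at least 189-fold). Tspan8, a tetraspanin of epithelial and tumour cells, measured 2.57, 3.38 and 2.94 against 12.51, 12.91 and 8.84 (adjusted p = 3.08e-05, a rise of at least 171-fold). Tumour 30 was the lowest of the tumours for Tspan8, and without it the bound was 419-fold. Other Tspan8 probe sets differed by between 1.34 and 4.66.

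Lcn2, an iron-binding protein of the acute phase, measured 3.64, 3.76 and 4.05 in normal liver and 9.74, 13.66 and 10.88 in the tumours, a difference of 7.61 ± 0.81 (SE; limma, adjusted p = 3.08e-05). Slpi, an inhibitor of leukocyte proteases, measured 4.33, 4.11 and 4.38 against 11.01, 12.63 and 10.57 (7.13 ± 0.55, adjusted p = 5.69e-07). Tnfrsf12a, the receptor of the cytokine TWEAK, measured 3.80, 3.85 and 4.48 against 9.59, 10.78 and 10.08 (6.11 ± 0.45, adjusted p = 3.52e-07). Tumour 29 was the highest of the 3 tumours for all of Lcn2, Slpi and Tnfrsf12a. Afp, the fetal counterpart of albumin, measured 5.38, 4.32 and 4.36 in normal liver and 13.18, 12.42 and 6.63 in the tumours. Its difference was 6.06 ± 1.10 (adjusted p = 0.00237), and 8.11 without tumour 30 (adjusted p = 5.95e-08). With only the 6 arrays fitted, the adjusted p of Afp was 0.0701.

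The largest falls were fewer, and several of them belonged to the male pattern of the liver. Obp2a, an odorant-binding protein of the male-biased set, measured 8.69, 7.81 and 8.37 in normal liver and 2.31, 1.95 and 2.06 in the tumours. The fall was at least 19.6-fold (adjusted p = 2.69e-08 by limma). Dio1, the deiodinase that activates thyroid hormone, measured 8.57, 8.39 and 9.21 against 3.21, 3.31 and 2.62 (at least 26.4-fold lower, adjusted p = 0.000128). Kcnk1, a potassium channel, measured 8.44, 7.62 and 7.08 against 2.80 in tumour 29, 3.21 in tumour 28 and 2.37 in tumour 30 (at least 13.1-fold lower, adjusted p = 1.09e-07). In all 3 genes every tumour lay below log2 4 while every normal liver lay above log2 7. Ugt2b38, a glucuronosyltransferase, measured 10.63, 9.76 and 9.95 against 6.08, 4.49 and 2.44, a difference of -5.78 ± 1.41 (SE; adjusted p = 0.0135). The gene 9130409I23Rik fell by 3.92 ± 0.96 (adjusted p = 0.0133) and Susd4 by 3.09 ± 1.00 (0.0482). Alas2, an enzyme of erythroid haem synthesis, fell by 2.64 ± 0.77 (0.0304) and the pro-apoptotic Bmf by 2.64 ± 0.64 (0.0132).

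Leaving out 1 array ended some of these calls of falls. Ugt2b38 lost its call without normal liver 1 (adjusted p = 0.0555). Bmf lost it without normal liver 1 or tumour 29 (up to 0.0763). Alas2 lost it without any normal liver, tumour 29 or tumour 30 (up to 0.113). Susd4 lost it without any of these 5 arrays or any of WT tumours 16, 17 and 19 and mutant tumours 24 and 25 (up to 0.156). Susd4 was at 7.52, 6.71 and 4.72 in tumours 28, 29 and 30 and Alas2 at 7.51, 6.91 and 4.62, so that tumour 30 was the lowest in both. Another probe set of Susd4 differed by -2.79.

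**Figure D2:**
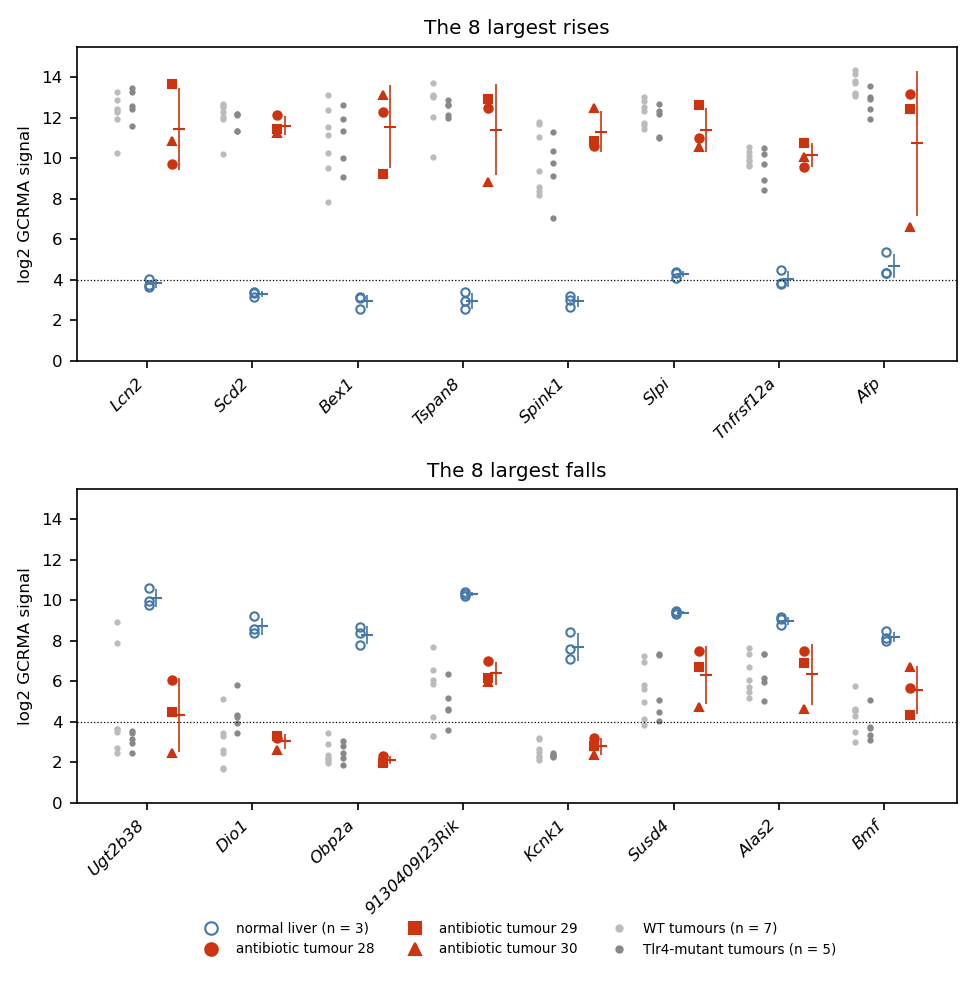
Log2 GCRMA signal (vertical axis) of the 8 largest rises (upper panel) and the 8 largest falls (lower panel) on every array, with normal liver in blue, antibiotic tumours in red by tumour number, WT tumours in light grey and Tlr4-mutant tumours in dark grey; bars give mean ± SD of the 3 arrays and the dotted line marks log2 4. Every antibiotic tumour lies above every normal liver in the upper panel and below every normal liver in the lower one; tumour 30 lies far from tumours 28 and 29 for Afp.

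The oncofetal and tumour markers had the largest share of risen genes among lists of more than 5 tested genes. Of 30 genes listed, 28 were on the array and 21 tested. Of these, 11 rose and none fell, all 21 differences were positive, and the median was 4.10 (3.05 with genes below log2 4 set to it). Without tumour 30, 13 rose. With only the 6 arrays fitted, 6 rose. Over all 9053 genes 8.11% rose and 6.91% fell, and the counts of the later lists are to be read beside these shares. For counts with only the 6 arrays, the shares over all genes were 5.06% and 6.33%. Gpc3, a heparan sulfate proteoglycan used to diagnose hepatocellular carcinoma, measured 2.11, 2.78 and 2.09 in normal liver and 9.17, 8.78 and 10.84 in the tumours (at least 48.3-fold, limma, adjusted p = 0.000984). Igdcc4 measured 2.86, 2.50 and 2.61 against 9.27, 9.63 and 8.60 (at least 35.9-fold, adjusted p = 2.4e-07). The groups were far apart for both, with no tumour near the normal range.

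Some members of this list were high in only part of the tumours. Akr1c18, a hydroxysteroid dehydrogenase, measured 11.07 and 10.77 in tumours 28 and 29 but 2.90 in tumour 30, inside the normal range of 2.50 to 3.17. It was at least 19-fold higher (limma, adjusted p = 0.0176) and at least 121-fold without tumour 30 (adjusted p = 3.73e-08), and its call was lost without normal liver 1 or 2 or tumour 28 or 29 (up to 0.0943). Golm1, a Golgi protein used as a serum marker of liver cancer, measured 8.89, 8.54 and 3.72 against at most 3.22 in normal liver, and Ly6d 11.07, 12.26 and 3.17 against at most 3.15. Golm1 was at least 8.27-fold higher with tumour 30 and 26.2-fold without it, and Ly6d at least 28.6-fold and 203-fold. Tff3, a mucosal peptide, measured 12.84 in tumour 28, 5.93 in tumour 29 and 8.14 in tumour 30. Igf2, the fetal growth factor, was at 5.87 in tumour 28 and at 2.18 and 2.48 in the others, within or below the normal values of 2.41 to 2.52 (adjusted p = 0.685). Tumour 30 was thus at or near the normal level for Akr1c18, Golm1 and Ly6d, and tumour 28 alone was above it for Igf2.

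Among 14 cholangiocyte and progenitor markers on the array, 8 were tested and 3 rose. Prom1, the surface protein CD133 of progenitor cells, measured 2.78, 3.49 and 3.07 against 10.04, 9.0 and 9.20 and was at least 42.6-fold higher (adjusted p = 0.000411 by limma). The rise of Tspan8 is described with the largest rises. Bicc1, an RNA-binding protein, measured 4.60, 5.24 and 4.66 against 5.96, 7.13 and 10.51. Its call (3.03 ± 0.86 SE, adjusted p = 0.0283) was lost without tumour 30 (1.71, adjusted p = 0.0907) or any normal liver. The defining duct keratins Krt7 and Krt19 and the channel Cftr were below log2 4 on all arrays. Epcam, an adhesion molecule of ducts and progenitors, was at 8.10 in tumour 30 and at or below 3.10 in tumours 28 and 29 and in normal liver. The mean over the 14 markers was 3.09 to 3.26 in normal liver and 4.64, 5.51 and 5.47 in the tumours. The part of duct cells in these values was not tested.

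The promoter bases just before the start sites of 5 genes of the results are shown because each holds a letter match to a motif of a factor known for this tissue. They cover the 100 bases before the start in RefSeq (GRCm38.p6), 5′ to 3′ on the gene's strand, and the capitals mark the matches. Afp is at chr5:90490614-90490713 (plus strand), Anxa2 at chr9:69453583-69453682 (plus), Prom1 at chr5:44101737-44101836 (minus), Anxa4 at chr6:86793585-86793684 (minus) and Hfe at chr13:23710855-23710954 (minus). The capitals are an HNF1 motif and a TATA box in Afp, an AP-1 motif and a TATA box in Anxa2, an AP-1 motif in Prom1 and Hfe, and an NF-kappaB motif in Anxa4.
Afp: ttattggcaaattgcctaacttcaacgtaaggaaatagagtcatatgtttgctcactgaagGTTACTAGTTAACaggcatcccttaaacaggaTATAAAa
Anxa2: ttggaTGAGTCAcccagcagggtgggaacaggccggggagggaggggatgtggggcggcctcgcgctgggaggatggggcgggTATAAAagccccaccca
Prom1: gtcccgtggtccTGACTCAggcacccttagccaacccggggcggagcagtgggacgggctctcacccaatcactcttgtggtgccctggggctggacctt
Anxa4: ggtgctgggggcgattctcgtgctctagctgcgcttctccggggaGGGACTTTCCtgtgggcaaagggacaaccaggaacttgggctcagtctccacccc
Hfe: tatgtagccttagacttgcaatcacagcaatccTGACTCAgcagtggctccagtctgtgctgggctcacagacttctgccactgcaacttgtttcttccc

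The motifs were searched on both strands of the 250 bases before the start of 7410 tested genes with a RefSeq promoter, as TGANTCA for AP-1 and TATAAA for the TATA box (N being any base). The NF-kappaB motif was GGGA and TTCC with any 2 bases between, and the HNF1 motif GTTA, any base, T, any 2 bases and TTAAC. An AP-1 match was present in 5.53% of all these promoters, in 6.45% of those of risen genes and in 6.19% of those of fallen genes. The shares were 1.51%, 2.31% and 1.74% for NF-kappaB, 0.175%, 0.165% and 0.193% for HNF1, and 8.45%, 8.6% and 8.32% for the TATA box. A match describes the letters only.

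Tumour 30 differed from the other antibiotic tumours at liver genes and at genes otherwise silent on these arrays. The transporter Slco1a1 measured 10.30 and 9.64 in tumours 28 and 29 and 2.22 in tumour 30, and the male-biased urinary protein Mup10 9.70, 8.84 and 3.57. In normal liver Slco1a1 was at 11.63 to 11.69 and Mup10 at 10.71 to 11.15. The amino acid enzyme Asns measured 8.03, 7.87 and 3.20 (4.30 to 7.85 in normal liver), and the serpin Serpina12 13.04, 12.96 and 8.29. In the other direction, the ubiquitin ligase gene Itch measured 9.81, 9.34 and 13.63, the ciliary gene Pkhd1 4.82, 5.62 and 10.22, the phospholipase gene Plcb4 4.84, 4.51 and 10.25, and Bhlhb9 2.38, 3.01 and 8.96. For Itch, Plcb4, Bhlhb9 and Fry, tumour 30 was above every WT tumour as well. Tumour 30 alone among the 18 arrays was above log2 6 at 37 genes of which every probe set stayed below log2 4 elsewhere, led by Fgfbp1 at 11.36, and the other arrays had between 0 and 9 such genes. These genes were chosen by their values in tumour 30 and carry no test.

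**Figure D3:**
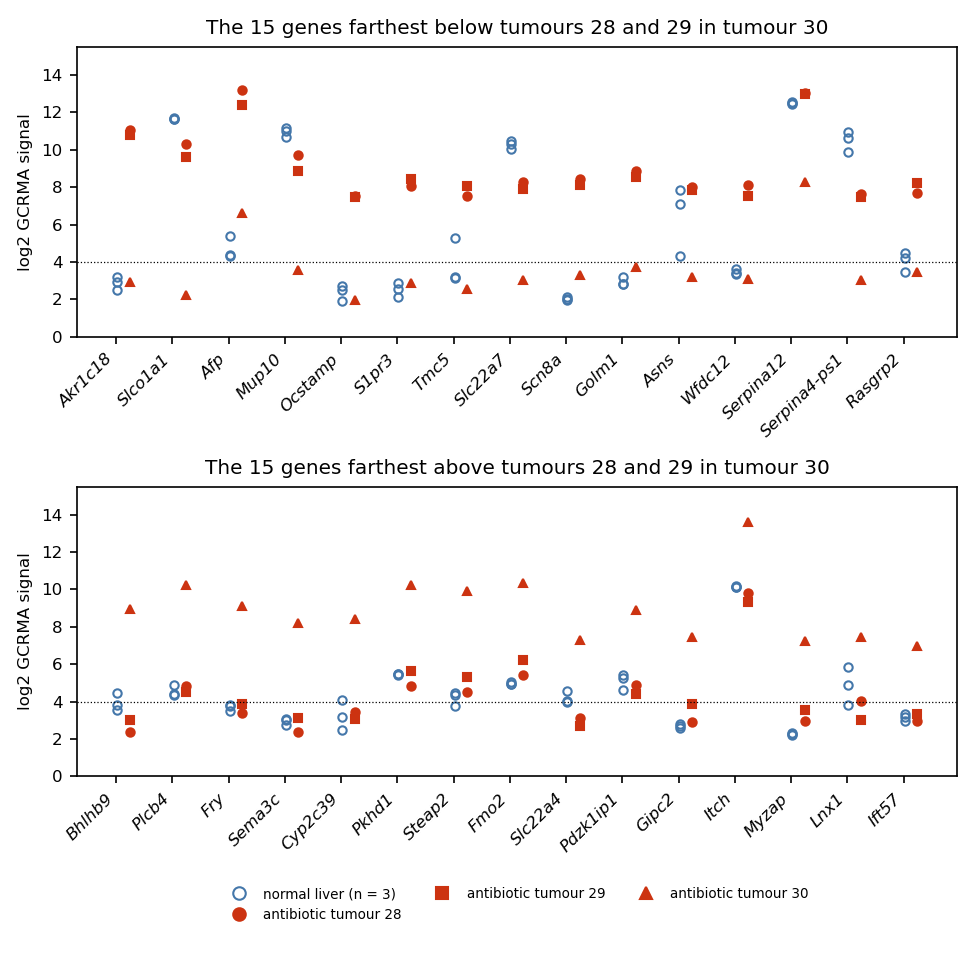
Log2 GCRMA signal (vertical axis) of the 15 genes farthest below (upper panel) and the 15 farthest above (lower panel) the other antibiotic tumours in tumour 30, among genes at which tumours 28 and 29 lie within 1 log2 unit; normal livers in blue, tumours in red by number, dotted line at log2 4. Akr1c18, at 2.90 in tumour 30 against 11.07 and 10.77, and Bhlhb9, at 8.96 against 2.38 and 3.01, are the farthest apart.

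Part of the cell cycle genes rose. Of 34 genes on the array 27 were tested, 8 rose, none fell, and the median was 1.00 (0.50 with low values bounded). Ccnd1, the cyclin of entry into the cycle, measured 7.79, 7.88 and 6.99 in normal liver and 10.02, 10.99 and 9.85 in the tumours (2.73 ± 0.50 SE, limma, adjusted p = 0.00261). Stmn1, a tubulin-binding protein, measured 6.55, 6.46 and 6.32 against 8.19, 8.66 and 10.35 (2.62 ± 0.58, adjusted p = 0.00773), but its other probe set, used when those that may share sequence were left out, differed by 1.20 (0.0869). Neither gene's groups overlapped. Cdk6 differed by 1.17 ± 0.31 (adjusted p = 0.0196), a call lost without normal liver 1 or tumour 29 (up to 0.0903), and the other risen genes were Mcm3, Mcm4, Mcm5, Mcm6 and Pcna of DNA replication. The proliferation antigen Mki67 measured 2.67, 2.74 and 2.75 against 4.27, 4.78 and 4.89. It did not pass with all arrays in the fit (adjusted p = 0.12) and passed with only these 6 (adjusted p = 0.00852). Without tumour 30, 5 of the 27 genes rose. With only the 6 arrays 10 rose (5.06% of all genes). With tumour 30 left out of these, 15 rose and 1 fell (8.90% and 10.7% of all genes). In 21 of the 27 every tumour lay above every normal liver, against 19.8% of all genes.

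Among 20 tested p53 targets and apoptosis genes, 4 rose and none fell, with a median of 0.54. Cdkn1a, the p21 inhibitor of the cell cycle, measured 3.35, 2.30 and 2.59 against 6.58, 9.84 and 5.41 (at least 9.68-fold, limma, adjusted p = 0.0029). It was highest in tumour 29, and every tumour lay above every normal liver. With only the 6 arrays fitted its adjusted p was 0.0514. The survival gene Bcl2 was at least 4.28-fold higher (adjusted p = 0.0257) and Mcl1 differed by 0.80 (0.0307), and both calls were lost without any normal liver, tumour 29 or tumour 30 (up to 0.0961 and 0.108). Mcl1 differed by 0.48 without tumour 30. The fourth risen gene was Trp53inp1.

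Growth signals and their early response rose in part. Of 13 tested EGF receptor ligands and growth factors 3 rose and none fell. Nrg1, a neuregulin that binds ERBB receptors, measured 2.85, 2.20 and 3.08 against 5.32, 6.18 and 6.37 (at least 3.87-fold, limma, adjusted p = 0.000668). Hbegf, an EGF receptor ligand, measured 1.84, 2.33 and 3.0 against 3.79, 7.07 and 5.42 (at least 2.69-fold, adjusted p = 0.00367, and 0.065 with only the 6 arrays). Tumour 28 was the lowest for both, though still above every normal liver. Pdgfa differed by 1.14 ± 0.29 (SE; 0.0183), lost without normal liver 1 or 3 or tumour 29 (up to 0.0966). Epiregulin (Ereg) was below log2 4 on every array. Among 13 tested genes of ERK output 5 rose and 1 fell. Ier3, an early survival gene, measured 2.78, 2.82 and 3.57 against 7.76, 11.53 and 8.08 (at least 34.9-fold, adjusted p = 0.00175). The ERK phosphatase gene Dusp6 differed by 1.94 ± 0.47 (0.013), lost without normal liver 1 or tumour 29 (up to 0.0722). Phlda1 differed by -1.63 ± 0.43 (0.0204), lost without any normal liver, tumour 28 or tumour 30 (up to 0.0707).

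Immediate early and heat shock genes, which respond within minutes to growth factors and to stress, had 8 risen and 1 fallen among 19 tested, with a median of 1.44. Btg2, an antiproliferative gene, measured 5.90, 7.27 and 6.48 against 10.23, 11.46 and 8.63 (3.55 ± 0.56 SE, limma, adjusted p = 0.00086). Klf6, a zinc finger factor, measured 4.57, 5.22 and 5.04 against 7.41, 9.45 and 9.32 (3.78 ± 0.62, adjusted p = 0.00115). Egr1 measured 8.47, 9.24 and 7.17 against 11.82, 11.60 and 10.79 (3.11 ± 0.56, adjusted p = 0.00215). All tumours lay above all normal livers in these 3 genes, although the normal livers themselves ranged from 7.17 to 9.24 for Egr1. The other risen genes were Fos, Jun, Ier2, Ccn1 and Ccn2. Zfp36, which destabilises cytokine mRNAs, differed by -0.95 ± 0.28 (0.0326), lost without normal liver 2 or 3 or tumour 28 or 29 (up to 0.129).

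Male-biased genes lay lower and part of the female-biased genes rose. Among 19 tested male-biased genes none was higher on average, and 18 had every tumour below every normal liver, against 22.5% of all genes. The median was -2.05. Only 4 passed with all 18 arrays in the fit (Obp2a, Ugt2b38, Susd4 and Cyp2u1). With only the 6 arrays 8 passed, or 15 when tumour 30 was left out of these. Over all genes, 6.33% and 10.7% passed as lower in the last 2 fits. Cyp2u1 measured 5.93, 5.93 and 6.33 against 5.36, 4.0 and 3.85 (-1.66 ± 0.40 SE, limma, adjusted p = 0.0127), lost without normal liver 3 or tumour 29 (up to 0.0636). The fatty acid elongase Elovl3 measured 9.91, 10.41 and 10.20 in normal liver and 7.04, 5.67 and 1.95 in the tumours. Its difference of -5.29 ± 1.82 had an adjusted p of 0.0601 with all arrays and 0.0463 with only these 6, and was -3.82 without tumour 30 (0.193).

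Of 14 tested female-biased genes 6 rose and none fell, with a median of 1.97 (1.31 bounded). Cyp2b9, a cytochrome P450 that adult male liver hardly makes, measured 1.34, 1.74 and 1.68 in normal liver and 8.40, 8.64 and 8.29 in the tumours (at least 21.7-fold, limma, adjusted p = 0.00311). Abcd2, a peroxisomal fatty acid transporter, measured 2.09, 3.30 and 3.86 against 9.27, 8.96 and 8.38 (at least 29.3-fold, adjusted p = 2.02e-05). The 3 tumours lay close together for Cyp2b9. Sult1e1, the sulfotransferase that inactivates oestrogens, measured 2.40, 2.60 and 2.55 against 4.79, 6.28 and 7.41 (at least 4.47-fold, adjusted p = 0.000105). Sult1e1 passed the filter only through these 3 tumours. The other risen genes were Nipal1, Trim24 and Rtn4. Without tumour 30, 4 of the 14 rose.

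In the growth hormone and IGF axis, 2 of 15 tested genes rose, both IGF-binding proteins. Igfbp1 measured 8.07, 9.76 and 8.91 against 13.34, 13.93 and 12.13 (4.22 ± 0.45 SE, limma, adjusted p = 3.08e-05), with every tumour more than 2 log2 units above every normal liver. Igfbp3 measured 6.03, 7.26 and 7.31 against 9.24, 12.07 and 8.74 (3.15 ± 0.98, adjusted p = 0.0407). Its call was lost without any normal liver, tumour 29 or mutant tumour 25 (up to 0.191). The median of the list was -0.37.

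Genes of drug metabolism were more often lower than higher. Of 41 tested cytochrome P450 and drug metabolism genes 1 rose and 7 fell, 8 differences were positive, and the median was -0.57. Ugt2b5, a glucuronosyltransferase, measured 13.49, 13.40 and 13.54 against 12.99, 12.79 and 12.28 (-0.79 ± 0.17 SE, limma, adjusted p = 0.0063). Sult1a1, a phenol sulfotransferase, measured 11.61, 11.91 and 12.16 against 12.75, 12.85 and 13.76 (1.22 ± 0.26, adjusted p = 0.00695). Neither overlapped between groups, and neither passed with only the 6 arrays (0.0616 and 0.0563). Cyp3a11, the main drug-metabolising P450 of mouse liver, fell by 0.84 ± 0.26 (0.0417), Cyp2d22 by 1.09 ± 0.29 (0.02) and Cyp4f13 by 0.92 ± 0.24 (0.0203). All of these calls were lost without normal liver 1 or tumour 29. Cyp3a11 also lost its call without normal liver 2 or 3, tumour 30, WT tumour 21 or mutant tumour 25, and Cyp2d22 without normal liver 3 (up to 0.131 for Cyp3a11, 0.0922 for Cyp2d22 and 0.104 for Cyp4f13). The others that fell were Aox1, Cyp4v3 and Ugt2b36. Cyp2b10 was below log2 4 on every array. Without tumour 30, 4 of the 41 fell. Of 30 NRF2 and glutathione genes 1 rose, the oxidative stress factor Nfe2l2 itself (1.10 ± 0.31, 0.0258), lost without any normal liver or tumour 29 (up to 0.128).

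Few bile acid genes passed with all arrays in the fit. Cyp7a1, the rate-limiting enzyme of the classical pathway, measured 11.15, 11.09 and 11.34 in normal liver and 11.14, 10.98 and 10.40 in the tumours, an overlapping range (-0.35 ± 1.52 SE, limma, adjusted p = 0.9). Cyp8b1, which directs the pathway to cholic acid, measured 11.20, 11.26 and 11.10 against 8.73, 7.99 and 8.55. Every tumour was more than 2 log2 units below every normal liver. With all arrays its adjusted p was 0.214, and with only these 6 it was 0.00429. Cyp39a1, an oxysterol hydroxylase, measured 7.04, 4.56 and 7.30 against 9.73, 9.51 and 9.18 (3.17 ± 0.69, adjusted p = 0.00695). The list had 1 rise and 3 falls among 31 tested genes, 2 rises and 8 falls with only the 6 arrays, and a median of -0.60. The falls were the bile salt export pump Abcb11 (-1.22 ± 0.34, 0.024), the bile acid regulator Nr5a2 (-0.77 ± 0.22, 0.0268) and the synthetic enzyme Hsd3b7 (-1.62 ± 0.51, 0.0443). Each was lost without any normal liver, tumour 29 or tumour 30, and Hsd3b7 also without any of WT tumours 16, 18, 20 and 21 and mutant tumours 25 and 27. Their adjusted p rose up to 0.111, 0.0943 and 0.131. Nr0b2, the bile acid-induced repressor of Cyp7a1, overlapped between groups (5.94 to 7.27 against 4.63 to 7.57).

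Some zonal genes of the lobule were called with only the 6 arrays in the fit. Of 15 urea cycle and periportal genes none passed with all 18 arrays and 4 were lower with only the 6. Of 14 Wnt targets and pericentral genes none passed with all arrays and 7 were lower with the 6. Over all genes, 6.33% were lower with the 6. At an unadjusted p under 0.05, the all-array fit passed 2900 of all 9053 genes. Cyp2f2, a periportal P450, measured 13.35, 13.25 and 13.46 against 12.27, 11.29 and 10.58 (adjusted p = 0.526 by limma with all arrays, 0.0374 with 6). Cyp1a2, a pericentral P450, measured 13.13, 13.13 and 13.07 against 12.12, 11.47 and 11.12 (0.523 and 0.0232). Every tumour lay below every normal liver in both genes, and tumour 30 was the lowest. Etnppl (-1.92) and the Wnt target Tbx3 (-1.89) gave adjusted p-values of 0.448 and 0.321 with all arrays and 0.045 and 0.0468 with 6, and Tbx3 also passed without WT tumours 17 and 19 (0.0474). The medians were -0.56 for periportal and -0.77 for pericentral genes.

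Plasma protein genes gave few calls. Alb measured 14.49, 14.62 and 14.63 in normal liver and 14.64, 14.71 and 14.69 in the tumours (0.10 ± 0.09 SE, limma, adjusted p = 0.494). Among 35 plasma protein genes only the carrier Ahsg rose (0.48 ± 0.11, adjusted p = 0.0123), not with only the 6 arrays (0.0675), and the median was -0.01. Without tumour 30, 3 rose. In 14 of the 35 genes the groups did not overlap, 9 with the tumours above and 5 below. Over all 9053 genes the groups did not overlap at 42.3%, 19.8% above and 22.5% below, so the total of the list was near that of all genes. Single genes moved apart in tumour 30, such as Apoa4 (13.74, 14.27 and 10.44 against 11.96 to 11.99), F11 (11.02, 10.40 and 8.53 against 10.53 to 10.62) and C8a (12.65, 12.84 and 11.41 against 13.07 to 13.22), which were chosen after their values were seen and did not pass. The mean over all 35 was 12.82 to 12.87 in normal liver and 12.96, 12.89 and 12.70 in tumours 28, 29 and 30. Of 26 amino acid catabolism genes none rose and 2 (7.69%) fell with all arrays in the fit, near the 6.91% of all genes. With only the 6 arrays 5 fell, against 6.33% of all genes. In 19 of the 26 every tumour lay below every normal liver, against 22.5% of all genes, and in none above. Hao1 differed by -0.97 ± 0.29 (0.0339), or -0.57 without tumour 30, and Hibadh by -0.88 ± 0.28 (0.0418). Both calls were lost without any normal liver, tumour 29 or tumour 30, and that of Hibadh without mutant tumour 25 too (up to 0.119 and 0.153). Among 23 hepatocyte transcription factors none rose and 2 (8.7%) fell with all arrays, again near the share over all genes. With only the 6 arrays 1 rose and 5 fell. Every tumour lay below every normal liver in 13 of the 23 and above in 1. The 2 that fell with all arrays were Nr5a2 and the fatty acid sensor Ppara (-1.27 ± 0.41, 0.0475). Ppara lost its call without any normal liver, any antibiotic tumour, WT tumours 16, 19 or 20 or mutant tumour 25 (up to 0.157). Nr5a2 lost it as given above.

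Lipid and sugar metabolism changed at few genes. Cd36, the fatty acid translocase, measured 3.09, 5.55 and 5.30 in normal liver and 7.70, 10.35 and 11.38 in the tumours (5.16 ± 0.89 SE, limma, adjusted p = 0.00161) and was the only one of 25 fatty acid synthesis and storage genes to pass. Vnn1, a PPARalpha target, measured 3.68, 3.18 and 3.94 against 3.67, 9.88 and 11.82, so that tumour 28 was within the normal range. Its call (adjusted p = 0.019) was lost without normal liver 1 or 2, tumour 29 or tumour 30 (up to 0.0898), and the rise of at least 21.9-fold became one of at least 6.84-fold without tumour 30, with no call. Among 20 cholesterol synthesis genes Srebf2 rose (0.97, 0.0449) and Tm7sf2 fell (-0.85, 0.0318). Both calls were lost without normal liver 2 or 3, tumour 29 or tumour 30, and that of Srebf2 also without normal liver 1, WT tumours 18 or 21 or mutant tumours 24, 25 or 27 (up to 0.144 and 0.112). Another Srebf2 probe set differed by -0.10. Of 22 glycolysis and gluconeogenesis genes the muscle phosphofructokinase Pfkm alone passed (-0.86, 0.012), lost without tumour 29 (0.0662).

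Serine synthesis, hypoxia and iron genes gave isolated changes. Phgdh, the first enzyme of serine synthesis, measured 1.63, 2.09 and 2.31 against 9.03, 7.91 and 6.06 (at least 12.7-fold, limma, adjusted p = 0.00142). Other Phgdh probe sets differed by 4.95 and 0.61. Shmt2, a mitochondrial serine enzyme, fell by 1.47 ± 0.35 (SE; 0.0125), lost without normal liver 1 (0.0519). With all arrays no other of 23 genes of the integrated stress response was called, and without tumour 30 4 rose and 1 fell. Of 18 hypoxia-induced genes, Ndrg1 (3.46, 0.0394) and Ddit4 (2.51, 0.0405) rose and Higd1a fell (-0.85, 0.0116). The call of Higd1a ended with its probe sets averaged (-0.45, 0.0857) and with only the 6 arrays (0.0929). The rises of Ndrg1 and Ddit4 were lost without any normal liver or tumour 29, and that of Ndrg1 without tumour 30 (up to 0.148 and 0.181). Ddit4 was at 9.94 in tumour 29 and at 6.65 and 6.14 in tumours 28 and 30. Among 16 iron genes Id1, a target of BMP signalling, measured 3.18, 3.43 and 3.48 against 7.73, 8.15 and 8.86 (at least 19-fold, adjusted p = 0.00507). The iron regulators Hfe (-0.92 ± 0.26, 0.0284) and Tmprss6 (-0.77 ± 0.21, 0.0209) fell, lost without any normal liver or tumour 29, and for Hfe also tumour 30 (up to 0.0939 and 0.103). Of 19 clock genes none passed with all arrays. The PAR factor Hlf measured 7.51, 7.67 and 7.66 against 6.03, 6.11 and 6.84 (adjusted p = 0.239, and 0.0297 with 6 arrays). The clock-linked Usp2 differed by -1.06 (0.716, and 0.14 with 6 arrays).

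**Figure D4:**
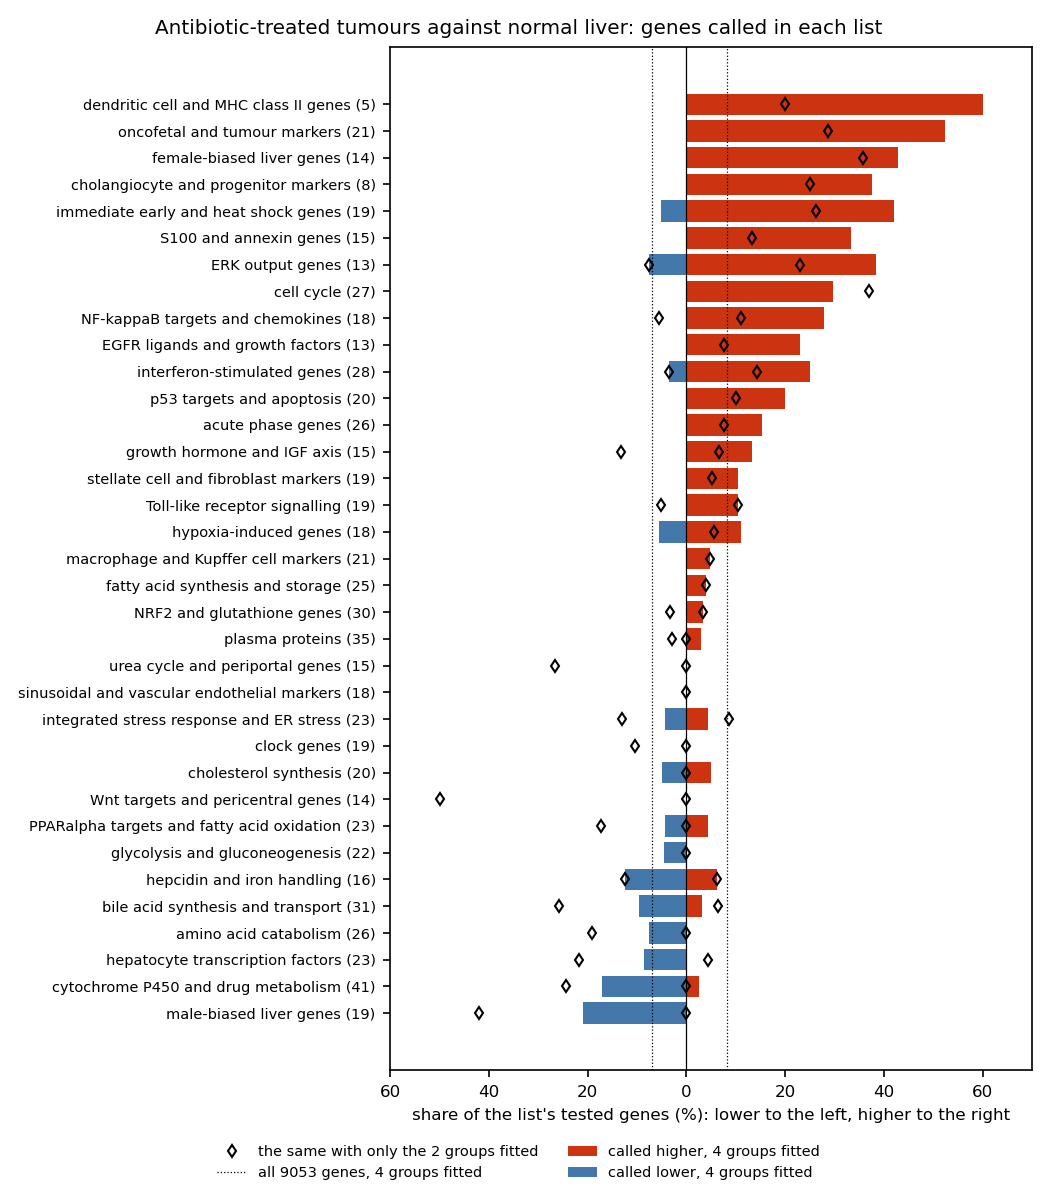
Share of each list's tested genes (%, number tested in brackets) called higher (red, to the right) or lower (blue, to the left) in antibiotic tumours against normal liver, for the lists with at least 5 tested genes; open diamonds give the fit with only the 6 arrays of these groups, and dotted lines the share over all 9053 genes (8.11% higher, 6.91% lower). The dotted lines are of the fit with all arrays, and with the 6 arrays alone these shares are 5.06% and 6.33%. Oncofetal genes (11 of 21) and female-biased genes (6 of 14) lie far to the right and male-biased genes (4 of 19) to the left. Zonal genes move left with the 6 arrays alone.

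Leaving out tumour 30 moved further counts of these and later lists by over 1.5 times. Rises went from 5 to 3 among NF-kappaB targets and from 1 to 2 among both cholesterol and fatty acid synthesis genes. Among glycolysis genes they went from 0 to 2, and among endothelial markers from 0 to 1. Falls went from 3 to 1 among bile acid genes, from 2 to 0 among both amino acid catabolism genes and hepatocyte transcription factors, and from 2 to 1 among iron genes. Among ERK output and cholesterol genes they went from 1 to 0, and among growth factors and Toll-like receptor genes from 0 to 1.

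Sensing and inflammatory genes rose at few members. Cd14, the co-receptor for lipopolysaccharide, measured 2.51, 2.36 and 2.73 in normal liver and 7.07, 10.77 and 7.50 in the tumours (at least 21.8-fold, limma, adjusted p = 0.000295). All tumours lay far above all normal livers, tumour 29 the most. Of 19 tested genes of Toll-like receptor signalling only Irak2, a kinase of the pathway, passed besides (0.92 ± 0.26 SE, 0.0284), lost without normal liver 1 or 3 or tumour 29 (up to 0.125). The 2 rises were 10.5% of the list, near the 8.11% of all genes. Tlr4 itself, by its probe set of highest mean, was below log2 4 on every array. Lbp, the lipopolysaccharide-binding protein, measured 8.13, 8.13 and 8.32 against 7.29, 8.19 and 10.28, with tumours on both sides of the normal range (adjusted p = 0.778).

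Of 18 tested NF-kappaB targets and chemokines 5 rose and none fell, and 14 more on the array were too low to test. Icam1, an adhesion molecule, measured 5.53, 4.67 and 5.14 against 6.04, 8.60 and 8.39 (2.56 ± 0.52 SE, limma, adjusted p = 0.00466). Tnfaip3, a feedback inhibitor, measured 2.77, 2.95 and 2.30 against 3.42, 5.70 and 6.87 (at least 2.52-fold, adjusted p = 0.0123). In both genes tumour 28 lay nearest to normal liver, and neither passed with only the 6 arrays (0.0668 and 0.0891). Tnfaip3 lost its call without tumour 29 (0.0526), and Nfkbie (1.25 ± 0.36, 0.0296) without any normal liver, tumour 29 or tumour 30 (up to 0.102). The others were Vcam1 and the chemokine Cxcl9. Among 26 acute phase genes 4 rose, and the median was 0.04. Besides Lcn2 these were ceruloplasmin (Cp; 12.89, 12.71 and 12.88 against 13.72, 13.63 and 13.86, adjusted p = 0.00142), Il1rn and Steap4 (1.04 ± 0.29, 0.0271). Steap4 was lost without any normal liver or tumour 29 (up to 0.137). The serum amyloid genes overlapped between groups. Saa1 was at 11.12, 11.43 and 10.85 in normal liver and 9.58, 12.48 and 8.83 in the tumours (adjusted p = 0.729), and Saa2 gave an adjusted p of 0.992. For Saa1 and Saa2 tumour 29 was the highest of the 6 arrays and tumour 30 the lowest.

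Interferon-stimulated genes had 7 rises and 1 fall among 28 tested, with a median of 0.67. Ifi27 measured 9.63, 9.30 and 9.61 against 11.43, 11.25 and 10.78 (1.64 ± 0.18 SE, limma, adjusted p = 4.03e-05). Oas1a, an RNA sensor, measured 3.91, 4.32 and 4.55 against 6.77, 7.98 and 6.29 (2.75 ± 0.35, adjusted p = 0.000131). Ifit2, an antiviral RNA-binding protein, measured 2.34, 3.20 and 3.58 against 6.12, 7.84 and 9.97 (at least 15.8-fold, adjusted p = 0.000557). No tumour overlapped with normal liver in these 3 genes. Ifit1, Ifit3, Irf9 and Xaf1 rose as well. Stat2, a transcription factor of interferon signalling, was at least 1.14-fold lower (0.0159), lost without normal liver 2 or 3 or tumour 29 (up to 0.0575). With only the 6 arrays 4 rose and 1 fell.

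Markers of immune and stromal cells rose at single genes. Of 5 tested MHC class II and dendritic cell genes 3 rose, H2-Aa (6.03, 6.07 and 6.44 against 7.46, 9.03 and 9.46, limma, adjusted p = 0.00966), H2-Ab1 (0.0271) and H2-Eb1 (0.0276). Tumour 28 had the lowest value of the tumours for all of them. H2-Ab1 and H2-Eb1 were lost without any normal liver, tumour 29 or tumour 30 (up to 0.117 and 0.123), and without tumour 30 only H2-Aa passed. Of 21 macrophage and Kupffer cell markers only Mpeg1, a pore-forming protein of macrophages, passed (9.35, 9.41 and 9.53 against 11.92, 12.51 and 11.46, adjusted p = 4.75e-05). The Kupffer cell markers Cd5l (7.67 to 8.94 against 7.34 to 9.68) and Clec4f (5.16 to 7.07 against 4.05 to 6.67) overlapped, and Marco was below log2 4 throughout. The mean over 26 macrophage markers was 5.26 to 6.15 in normal liver and 5.40, 7.19 and 7.15 in tumours 28, 29 and 30.

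Among 19 tested stellate cell and fibroblast markers 2 rose. Sparc, a matrix protein, measured 6.91, 8.01 and 8.32 against 11.52, 11.96 and 12.20 (4.15 ± 0.71 SE, limma, adjusted p = 0.00158). Vim measured 7.88, 7.88 and 8.05 against 8.49, 10.84 and 9.18 (1.57 ± 0.48, adjusted p = 0.0374), lost without any normal liver or tumour 29 (adjusted p up to 0.176, and a difference of 0.90 without tumour 29). Col1a1 was below log2 4 on all arrays. None of 18 endothelial markers passed. Lyve1 of the sinusoids was at 4.90, 9.05 and 2.97 in tumours 28, 29 and 30 against 3.52 to 4.92 in normal liver, and Emcn at 3.75, 5.49 and 2.86 against at most 2.82. All 13 T and NK cell markers on the array were below log2 4 in all 6 samples. Neutrophil markers had 9 of 11 below it, and the others, S100a8 and S100a9, gave adjusted p-values of 0.107 and 0.197. Of 4 tested B and plasma cell markers none passed. Ighm measured 7.99, 7.64 and 8.16 against 6.34, 7.0 and 6.58 (0.494, and 0.0257 with 6 arrays), and Igha overlapped. None of 4 adipocyte markers passed, with Fabp4 at 1.39 (0.17) and Lpl at 1.12 (0.25), and without tumour 30 Fabp4 passed (2.10, 0.0493). The acinar gene Cela1 differed by -1.13 (0.177). Of the erythroid markers Alas2 alone passed, as given above with its limits. The part of cell composition in the gene groups above was not tested.

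S100 and annexin genes, which encode calcium-binding proteins, had 5 rises and no fall among 15 tested. Anxa2, which links calcium to membranes, measured 3.61, 4.80 and 5.05 against 9.49, 11.04 and 9.41 (5.49 ± 0.57 SE, limma, adjusted p = 3.03e-05). Anxa4 measured 8.68, 8.55 and 8.53 against 9.88, 10.06 and 10.28 (1.49 ± 0.29, adjusted p = 0.00396). S100a4 measured 2.48, 2.89 and 2.22 against 3.20, 4.03 and 4.72 (adjusted p = 0.0183), with normal liver and the mean of the tumours below log2 4, so that no fold is given. The tumours lay above normal liver in all of these genes. The call of S100a4 was lost without normal liver 1 or 3, tumour 29 or tumour 30 (up to 0.071). Anxa3 and Anxa5 rose as well. Without tumour 30, 2 of the 15 rose and 1 fell.

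The antibiotic tumours were also set against the 7 WT tumours, the contrast that differs by antibiotics in the labels. Of 9053 genes 8 passed (0.0884%), 1 higher (0.0110%) and 7 lower (0.0773%), and 1401 had an unadjusted p under 0.05. Sult1e1 was the higher one, at 4.79, 6.28 and 7.41 in the antibiotic tumours against 2.17 to 3.07 in the WT tumours (median 2.54, at least 4.47-fold, limma, adjusted p = 0.000545). No array outside the antibiotic group reached log2 4 for Sult1e1. It therefore passed the filter of log2 4 on at least 3 arrays only through the group in which it was high. With only the antibiotic and WT arrays in the fit limma passed no gene, 997 had an unadjusted p under 0.05, and the adjusted p of Sult1e1 was 0.113. This comparison and that with normal liver share the antibiotic arrays.

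The 7 lower genes stood in different relations to normal liver. Malat1, a nuclear long noncoding RNA, measured 12.22, 12.54 and 12.33 against 13.24 to 13.88 in WT tumours (-1.19 ± 0.17 SE, limma, adjusted p = 0.0178) and 12.26 to 12.44 in normal liver. Its probe sets disagreed against normal liver, with differences between -2.17 and -0.01. Malat1 passed as lower than normal liver with its probe sets averaged (-0.86, limma, adjusted p = 0.0141). It also passed without those that may share sequence (-1.31, 0.0204). Ranbp9 (-0.89 ± 0.16, 0.0457) lay at the normal level (0.01 ± 0.19 against normal liver), and Ppm1h (-1.70 ± 0.31, 0.0457) lay between WT tumours and normal liver. Kdm5b (-0.99 ± 0.16, 0.0312), Pgap2 (-0.83 ± 0.14, 0.0312), Washc4 (-1.87 ± 0.31, 0.0312) and Pdcd6ip (-0.64 ± 0.11, 0.0364) lay below normal liver too, at -0.79, -0.71, -1.19 and -1.08. Against normal liver, Kdm5b and Pgap2 lost their call without normal liver 1 (0.0646 and 0.055) and Washc4 without any normal liver, tumour 28 or tumour 30 (up to 0.122). All 7 lost the call against WT tumours without tumour 30 and without at least 1 other array, among them tumour 28 or 29 or 1 of WT tumours 16 to 20 (adjusted p up to 0.146 for Malat1, 0.164 for Kdm5b and Washc4, 0.173 for Pgap2, 0.191 for Pdcd6ip and 0.25 for Ppm1h and Ranbp9). The Washc4 probe set is of a class that may share sequence with other transcripts, and other Washc4 probe sets differed from normal liver by between -1.31 and 0.62.

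Some liver genes were near the normal level in the antibiotic tumours and spread widely among WT tumours without passing the test between them. Cyp7a1 ranged from 10.40 to 11.14 in antibiotic tumours and from 4.26 to 10.89 in WT tumours (3.12 ± 1.28 SE, limma, adjusted p = 0.269). Hamp2, a hepcidin gene, measured 12.07, 10.38 and 11.89 in antibiotic tumours, 10.89 to 11.85 in normal liver and 2.27 to 9.38 in WT tumours (5.90 ± 1.32, adjusted p = 0.146). The groups did not overlap for Hamp2, as at 366 genes (4.04%). Mki67 was at 4.27 to 4.89 against 5.30 to 8.94 (-2.68 ± 0.70, adjusted p = 0.152). Tmem238, Cnmd and Cpsf4l, next in order of p among higher genes, gave adjusted p-values of 0.0893, 0.146 and 0.146.

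**Figure D5:**
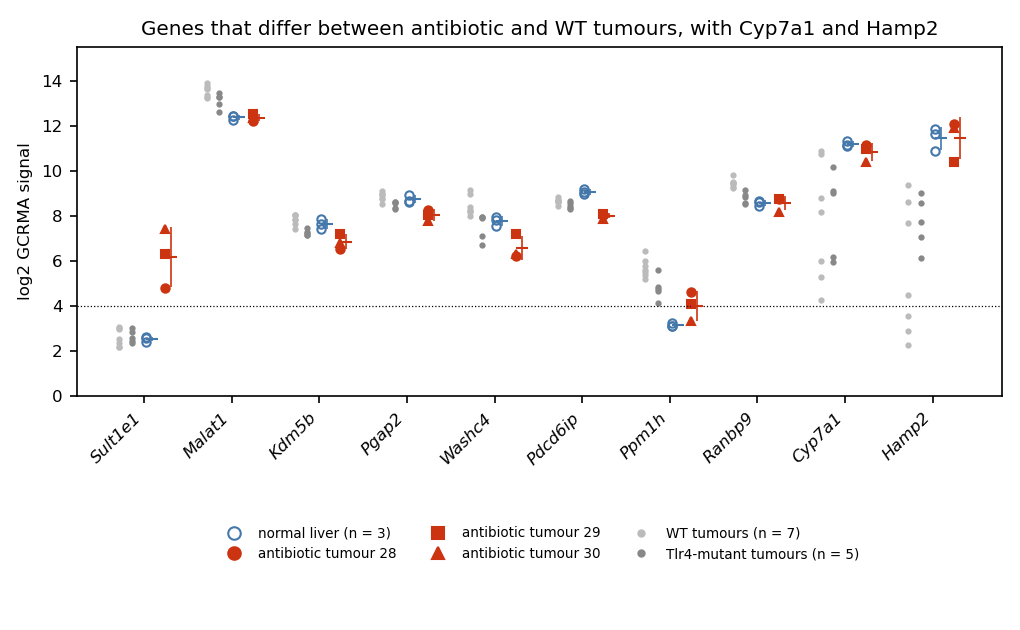
Log2 GCRMA signal (vertical axis) on every array of the 8 genes that passed between antibiotic and WT tumours, with Cyp7a1 and Hamp2 for their spread; colours, marks and bars as labelled, mean ± SD for antibiotic tumours and normal liver, dotted line at log2 4. Sult1e1 is above log2 4 in the antibiotic tumours alone, and Hamp2 in these tumours (10.38 to 12.07) overlaps normal liver (10.89 to 11.85).

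Against the 5 Tlr4-mutant tumours 21 genes passed (0.232%), 10 higher (0.110%) and 11 lower (0.122%). Sult1e1 was again higher (at least 4.47-fold, limma, adjusted p = 0.000251), though it passed the filter only through the antibiotic arrays. Pdgfa was higher too (1.47 ± 0.26, 0.0212). The Y-linked genes Uty (-1.08 ± 0.15, 0.00168) and Kdm5d (-1.28 ± 0.19, 0.00342) were lower, and neither passed against normal liver (0.15, adjusted p = 0.559, and -0.11, 0.749). The mutant mice are of another substrain, C3H/HeJ, and strain and Tlr4 allele cannot be told apart here.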

How the data were processed

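Expression was measured on Affymetrix 3′ IVT arrays from 100 ng of RNA, per the labels' protocols. The values are log2 signals that the authors made with GCRMA, per the submitters' processing notes; its version is not given in the sources used here. Of 45101 probe sets, 16663 lay above log2 4 on at least 3 of 18 arrays and 14689 of these had 1 gene symbol. A gene was represented by 1 probe set, giving 9053 genes, 3586 of them with several probe sets to choose from. Groups came from the sample titles. Differences were tested with limma 3.58.1 in R 4.3.3 over all 4 groups (14 residual degrees of freedom), with Benjamini-Hochberg adjustment over all genes and a threshold of 0.05. Probe sets of the same gene are quoted without a test. Figures were drawn with matplotlib 3.10.9 in Python 3.11.15. "At least" folds set groups below log2 4 to that level. The model was tested on simulated data with independent normal noise and 1 spread per gene for all groups. For this comparison it found 47% of 2-fold and 86% of 4-fold changes over 9053 genes, with 6 false calls among 139. In the real data the median SD was 0.15 in normal liver and 0.31 in the antibiotic tumours, so these rates may not hold there.

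Named genes were the 8 largest rises and falls among called genes without overlap, up to 3 called members a list and direction by smallest p (or the 2 largest differences where none was called), up to 5 genes a direction against WT tumours, and a set of liver, tumour and microbiota genes. The members, the 42 lists (691 of 948 genes tested) and the rules were chosen with earlier results of these data known. Tumour 30 genes, further list members, Fgfbp1 and Epcam were named after their values were seen. Alternatives changed the filter, the choice of probe set, the scaling, the variance model, the threshold and the arrays used. The number of arrays limits the precision.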

Additional observations from a re-analysis of the deposited data

Results flagged for a closer look

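Differences between antibiotic tumours and the other tumour groups, tested by limma within the fit over all arrays, drew attention to 8 genes against WT tumours. Sult1e1 was higher by 3.54 (adjusted p = 0.000545) as deposited, and by at least 4.47-fold with the WT tumours, all below log2 4, set to that level. The same bound holds against the mutant tumours. Sult1e1 passed the filter only through the antibiotic arrays. Lower were Malat1 (-1.19, 0.0178), Kdm5b (-0.99, 0.0312), Pgap2 (-0.83, 0.0312), Washc4 (-1.87, 0.0312), Pdcd6ip (-0.64, 0.0364), Ppm1h (-1.70, 0.0457) and Ranbp9 (-0.89, 0.0457). Against Tlr4-mutant tumours the named genes that differed were Sult1e1 (3.53, 0.000251), Uty (-1.08, 0.00168), Kdm5d (-1.28, 0.00342) and Pdgfa (1.47, 0.0212).
No array stood apart by Dixon's gap test in 24 tests, each of 1 gene in the WT or the mutant tumours, where chance marks about 1 in 20. The groups of 3 arrays, antibiotic tumours among them, are too small for that test.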

How the results depend on the processing

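The limma count against normal liver (1360) was 3063 with all 16663 probe sets tested singly, 448 at an adjusted p under 0.01, 663 with a 2-fold minimum, and 604 to 1490 with 1 array left out. The count against WT tumours (8) was 17 with a gene's probe sets averaged, 92 with all probe sets, 5 with arrays centred on their median, 1 with array weights, 1 at an adjusted p under 0.01, 4 with a 2-fold minimum, 4 without WT tumours 17 and 19, 0 with only the antibiotic and WT arrays (997 at an unadjusted p under 0.05), and 1 to 33 with 1 array left out. The count against Tlr4-mutant tumours (21) was 35 with all probe sets, 13 at an adjusted p under 0.01, 3 with only those groups fitted, and 13 to 77 with 1 array left out. Testing every probe set counts more features, and stricter thresholds pass fewer. Fewer arrays leave fewer degrees of freedom, yet the counts against normal liver both fell and rose with arrays left out. The cause of these and the other changes was not tested. The sign turned for Washc4 against normal liver without probe sets that may share sequence (0.62, adjusted p = 0.107) and for Serpina12 with only the antibiotic and normal arrays and tumour 30 left out (0.51, adjusted p = 0.0449), an alternative added after seeing the data; the cause was not tested. Of the 96 genes called against normal liver and followed gene by gene, 39 kept their call in every fit but the stricter thresholds. The share of higher genes among those called was 54% and 47.5% to 48.7% under other scalings. No paired analysis was possible because the groups share no replicate numbers. Genes below log2 4 give only bounds.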
